A study of Mus musculus with 14 samples.

Results

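Broad domains of elongating RNA polymerase II were taken as the peaks of at least 10 kb in the wild-type (WT) peak list for polymerase phosphorylated on serine 2 of its tail, abbreviated S2P. The rule kept 643 of the 163620 WT S2P peaks, which is 0.393% of the peaks and 8.09% of the bases under WT S2P peaks. Because width in WT chose the domains, their width and strength in WT are given as descriptions and nothing is rested on them. The same width rule applied to the Chd7-/- list (KO) gave 784 of 165206 peaks, which served as the reverse view.

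The study profiled chromatin of mouse G1ER cells by chromatin immunoprecipitation and sequencing, with antibodies to S2P, RUNX1 and GATA2. G1ER is an erythroblast line that lacks endogenous GATA1 and carries GATA1 fused to the estrogen receptor ligand-binding domain, so that estradiol lets GATA1 act and the cells mature. Both genotypes share this background. KO cells are Chd7-/- and lack the chromatin remodeller CHD7, and WT cells keep the gene. The labels name 2 S2P libraries per genotype, but each genotype has 1 S2P list, and there is 1 RUNX1 and 1 GATA2 library per genotype. How the S2P replicates were combined is not stated, and the labels do not say whether a library was taken before or after estradiol, nor how many KO clones were used. No spread between replicates could therefore be had, no test between genotypes was made, and the intervals below are exact 95% intervals for counting error only. Gene annotation came from RefSeq on GRCm38, the build of the lists.

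RNA polymerase II gains the serine 2 mark on its C-terminal repeats while it moves through a gene, and the mark is known to build up towards the gene end, where factors for RNA cleavage, polyadenylation and termination bind. The polymerase continues past the cleavage site before it leaves the DNA. RUNX1 and GATA2 are DNA-binding regulators of blood stem and progenitor cells, and CHD7 is a remodeller that moves nucleosomes.

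Few domains reach a gene start, and the 5 promoters below are examples from named genes with a start inside a domain, not the full set. The windows are RefSeq GRCm38.p6 windows of 250 bases before and 50 after a start. All 5 held a RUNX1 summit in KO. Of the windows not printed, that of Fads2 held no summit of either factor. That of Rpl13a held a RUNX1 summit of 128 fragments in KO and 95 in WT. Capitals mark AGATAA, the GATA letters, on either strand (TTATCT is its reverse complement). TGTGGT, the RUNX letters, was searched on both strands too and is absent from all 5, so no RUNX letters are marked. Of 880 windows of genes with a domain, 13.0% held TGTGGT and 5.57% held AGATAA, against 12.5% and 5.98% of 2793 windows of other covered genes and 14.97% and 9.65% of all 21263 windows of protein-coding genes.
Gata2, upstream start, chr6:88193641-88193940, plus strand: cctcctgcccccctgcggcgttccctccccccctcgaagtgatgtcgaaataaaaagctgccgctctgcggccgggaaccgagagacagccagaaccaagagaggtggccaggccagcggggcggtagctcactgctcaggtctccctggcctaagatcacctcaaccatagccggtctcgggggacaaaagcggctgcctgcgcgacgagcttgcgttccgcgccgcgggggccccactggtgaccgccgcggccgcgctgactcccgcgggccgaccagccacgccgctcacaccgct
Gata2, downstream start, chr6:88198414-88198713, plus strand: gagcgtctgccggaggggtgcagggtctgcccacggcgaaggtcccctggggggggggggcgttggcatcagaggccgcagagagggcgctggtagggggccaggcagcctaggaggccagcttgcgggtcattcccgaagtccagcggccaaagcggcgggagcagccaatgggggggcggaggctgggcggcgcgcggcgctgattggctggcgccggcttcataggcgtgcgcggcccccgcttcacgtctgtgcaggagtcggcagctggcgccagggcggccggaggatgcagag
Setdb1, chr3:95357153-95357452, minus strand: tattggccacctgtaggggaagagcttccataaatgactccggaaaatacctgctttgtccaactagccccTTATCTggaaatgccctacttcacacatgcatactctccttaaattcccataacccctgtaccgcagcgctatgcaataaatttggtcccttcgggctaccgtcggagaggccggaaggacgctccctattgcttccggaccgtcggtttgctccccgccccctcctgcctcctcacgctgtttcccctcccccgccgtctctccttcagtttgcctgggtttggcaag
Zfp207, chr11:80383029-80383328, plus strand: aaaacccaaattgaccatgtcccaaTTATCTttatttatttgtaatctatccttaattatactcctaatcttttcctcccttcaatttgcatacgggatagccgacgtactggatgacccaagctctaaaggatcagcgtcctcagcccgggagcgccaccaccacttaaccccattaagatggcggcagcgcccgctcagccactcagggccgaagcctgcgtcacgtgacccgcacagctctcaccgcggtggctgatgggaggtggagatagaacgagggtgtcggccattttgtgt
Jade1, chr3:41564630-41564929, plus strand: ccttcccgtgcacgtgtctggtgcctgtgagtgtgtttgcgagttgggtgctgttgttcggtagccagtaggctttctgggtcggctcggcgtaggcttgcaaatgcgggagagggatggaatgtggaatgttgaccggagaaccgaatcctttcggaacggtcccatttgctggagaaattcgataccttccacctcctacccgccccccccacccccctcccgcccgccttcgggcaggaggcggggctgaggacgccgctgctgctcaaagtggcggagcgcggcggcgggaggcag

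The upstream Gata2 window held a RUNX1 summit of 25 fragments in KO and none in WT, and the downstream Gata2 window held 1 of 38 fragments in KO and 1 of 44 in WT. At Setdb1, a histone methyltransferase gene, the RUNX1 summit had 111 fragments in KO and 70 in WT, and the GATA2 summit in the same window had 71 in KO and 58 in WT. Zfp207, a gene for a mitotic spindle protein, had a RUNX1 summit of 103 fragments in KO and 98 in WT, and no GATA2 summit in either list. At Jade1, a scaffold of a histone acetyltransferase complex, the printed window held a RUNX1 summit of 39 fragments in KO and none in WT. The letters of a window do not show binding, and the absence of TGTGGT says only that these letters are not in these windows.

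The KO list held more domains than the WT list, of nearly the same width. KO domains had a median width of 13.2 kb and a maximum of 61.5 kb, and WT domains a median of 13.0 kb (quartiles 11.1 and 15.9 kb) and a maximum of 61.5 kb. At 15 kb or more there were 263 peaks in KO and 189 in WT, at 20 kb or more 107 and 71, and at 40 kb or more 4 in KO and 5 in WT. The KO domains spanned 11.8 Mb and the WT domains 9.33 Mb. With S2P peaks joined over gaps of up to 100 bp there were 1167 domains in KO and 957 in WT, and the ratio of KO to WT domains stayed at 1.22. Joined over gaps of up to 1000 bp there were 4261 in KO and 3963 in WT, a ratio of 1.08.

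**Figure D1:**
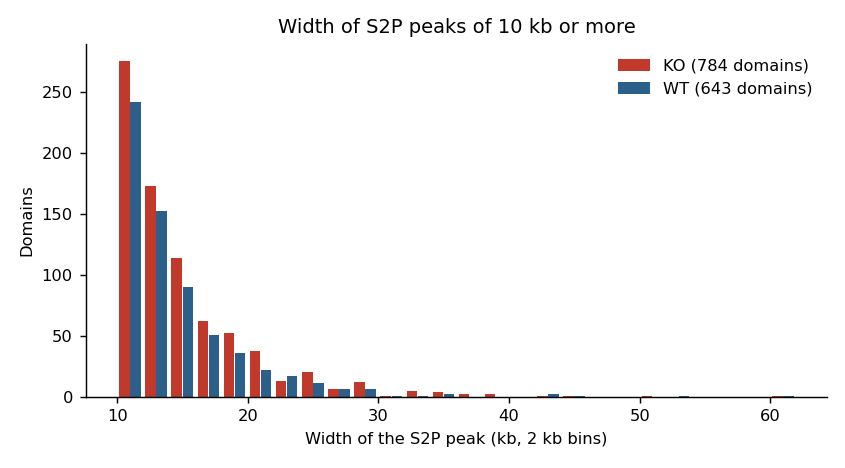
Number of S2P peaks of 10 kb or more (vertical axis) by width in kb, in bins of 2 kb (horizontal axis), in KO (red) and WT (blue), with 1 peak list per genotype. The KO list has the higher bar in every bin up to 20 kb, and both lists thin out to a few domains past 30 kb, with a widest peak of 61.5 kb in each.

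The domains were high as well as wide. The summit fragments below are whole counts recovered from the deposited fold and p values. WT domains had a median of 192 fragments at their summit (lowest 73, highest 298), against 34 for narrower WT peaks, and a median deposited fold enrichment of 10.9, against 2.98. The tallest WT S2P summit in the whole list was 298 fragments, 2 times the shortest peak width of 149 bp, and 91 of the 643 domains came within 10% of it, so summit heights near that ceiling are limited. Width and height were not the same selection, since 213 of the 643 domains were among the 643 WT S2P peaks with the highest −log10 q. The domains just inside the limit were at Washc5 (10003 bp), at a place without a coding gene (10004 bp), at Mtf2 (10008 bp), Sec61a2 (10011 bp) and Ppt1 (10028 bp). Just outside it were a peak without a coding gene on X (9991 bp), Nutf2 (9989 bp), Thrap3 (9986 bp), M6pr (9985 bp) and Ube2w (9965 bp).

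The widest domain covered 61.5 kb on chromosome 7 (135641561 to 135703088) across the ends of 2 facing genes, the receptor phosphatase gene Ptpre and the proliferation marker gene Mki67. One KO peak of 61.5 kb lay over it, and covered more than 99.9% of its bases. Next was a 53.6 kb domain on chromosome 19 (10048072 to 10101692) over the fatty acid desaturase genes Fads2 and Fads3, which 3 KO peaks covered for 98.9%. Jade1 had 44.0 kb, carboxypeptidase D (Cpd) 43.4 kb, the RNA helicase gene Dhx9 42.1 kb and the splicing factor gene Sf3b3 35.6 kb. The cytokine gene Tgfb1 followed with 35.6 kb, the RNA-binding genes Serbp1 with 32.3 kb and Mbnl1 with 31.3 kb, and Zfp207 with 29.8 kb. The last 5 of the 15 widest were at Hdlbp (29.5 kb), Zfpm1 (29.4 kb), Cbfa2t3 (28.8 kb), Nop58 (28.7 kb) and Hnrnpf (28.1 kb). Zfpm1 encodes FOG1, the partner protein of GATA factors, and Cbfa2t3 encodes a transcriptional corepressor. Nop58 is a core protein of small nucleolar RNA particles, and Hnrnpf and Hdlbp bind RNA.

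Some long genes carried a chain of domains rather than 1. Ptpre had 5, adding up to 105.1 kb of its 148 kb, and Mbnl1 had 4 with 59.7 kb of 157 kb. Bmp2k, Runx1, Kit, Cd47, Rbm25, Setdb1 and Pcm1 had 3 each, and 52 further genes had 2. Runx1 itself was under S2P peaks for 89.0% of its length in KO and 80.6% in WT. For Kit, the stem cell factor receptor gene, the coverage was 93.2% in KO and 95.1% in WT.

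Nearly every domain lay on a protein-coding gene. Of the 643 domains, 633 overlapped one (98.4%, interval 97.2 to 99.3), against 94.3% of the 2181 WT peaks of 5 to 10 kb, and 523 had at least 50% of their bases inside 1 gene. At least 1 kb of a domain lay in 1 gene for 375 domains, in 2 genes for 237 and in 3 for 17. A gene was said to carry a domain when at least 1 kb of the domain lay inside it. By that rule 827 of 21887 protein-coding genes (3.78%) carried a WT domain and 1011 (4.62%) a KO domain, and 714 carried both. Carriers had a median length of 24.9 kb, against 12.9 kb for the 2560 genes of at least 2 kb that were covered for at least 50% by WT S2P peaks but carried no domain. Among genes covered for 50% or more, the carrying share was 12.0% at 2 to 10 kb, 20.3% at 10 to 20 kb, 28.5% at 20 to 50 kb and 31.1% at 50 kb and more.

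Of the 10 domains without a coding gene, the widest lay over the long noncoding RNA gene Neat1, which forms paraspeckles. It spanned 23.9 kb of chromosome 19 (5821924 to 5845815) and KO peaks covered 97.5% of it. A 14.5 kb domain lay in the T cell receptor gamma region with Trgc1 and Trgj1 (chromosome 13), others over Dleu2 and Snhg17, and 4 over no annotated gene.

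Domains lay on the ends of genes. For the 522 domains whose gene had an annotated strand, 388 (74.3%) covered the gene end and 44 (8.43%) the gene start. The end without the start was covered by 359 domains (68.8%), against 51.8% of peaks of 5 to 10 kb, and neither by 119 (22.8%), against 40.98%. Where a domain covered the end it ran on past it by a median of 4.70 kb (quartiles 3.32 and 6.84 kb), and the longest run was 22.2 kb, past Tgfb1. For the peaks of 5 to 10 kb that median was 2.97 kb, in peaks that are narrower by the rule. These lengths include any neighbouring gene under the same peak. The Tgfb1 domain also lay on Ccdc97 and Hnrnpul1, and 254 of the 643 domains had at least 1 kb in each of 2 or more genes. A long run past an end is therefore not a measure of polymerase from that gene alone. The summit stood past the gene end in 284 domains (54.4%), between the middle and the end of the gene in 164 (31.4%), and between the start and the middle in 69 (13.2%). Where a domain missed the start, its near edge lay a median of 17.6 kb from it.

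The KO and WT lists followed nearly the same course along the genes of these 522 domains, which are 468 distinct genes. The gene end lay under a KO S2P peak in 98.3% of the 468 genes and under a WT S2P peak in 97.9%. At the gene start the shares were 34.0% in KO (interval 29.7 to 38.5) and 38.0% in WT (interval 33.6 to 42.6). The bin at the start held 356 RUNX1 summits in KO and 329 in WT over the distinct genes. Counted once per domain, as in the plot along genes, the share at 20 kb past the end was 24.7% in KO and 22.8% in WT.

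**Figure D2:**
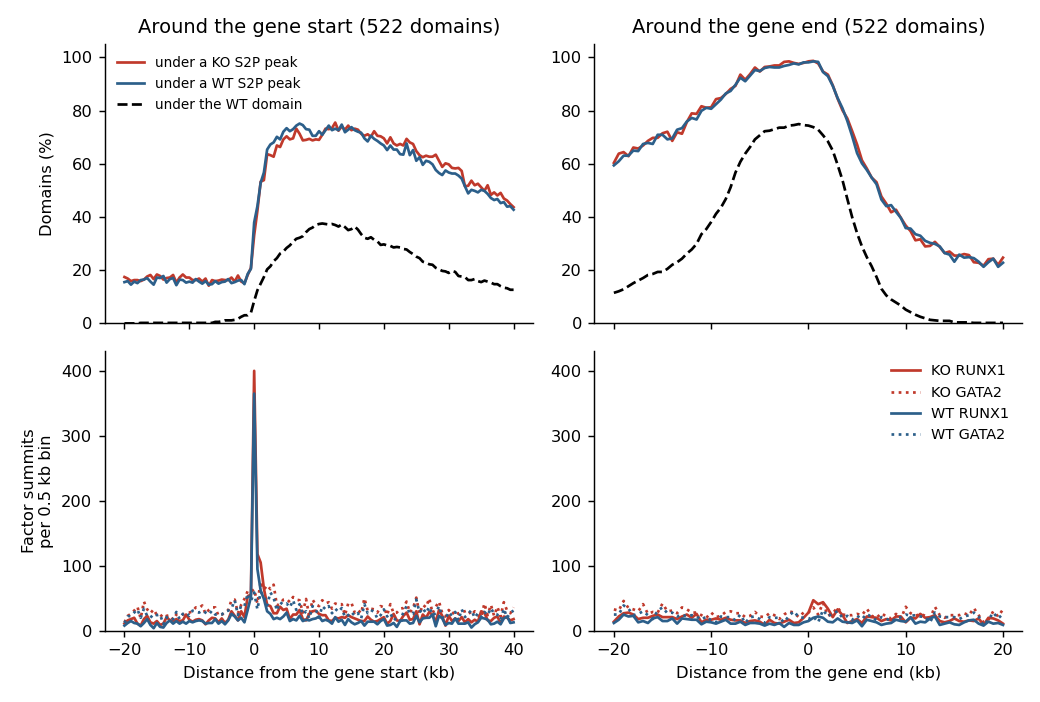
Top, the share of 522 domains (percent) for which a position on the domain's gene lies under a KO S2P peak (red), a WT S2P peak (blue) or the WT domain itself (dashed), by distance in kb from the gene start (left) and the gene end (right), downstream to the right. Bottom, RUNX1 summits (solid) and GATA2 summits (dotted) per bin of 0.5 kb, summed over the same 522 domains, in KO (red) and WT (blue). S2P and domain shares peak around the gene end, while RUNX1 summits stand at the gene start with 400 in KO and 365 in WT; a gene with several domains enters once for each.

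Facing genes shared many domains. Of the 237 domains with 2 genes, 169 had known orientations for both, and in 144 of them (85.2%, interval 78.9 to 90.2) the genes were convergent. Convergent here means that the genes face each other, and not every such domain held both gene ends. The 15.4 kb domain of Son and Donson, for example, stopped 9.89 kb before the end of Son. Divergent pairs numbered 2 and tandem pairs 23. Peaks of 5 to 10 kb with 2 genes were convergent in 83.6% of 318 pairs, so the share was about the same in narrower wide peaks, whereas all neighbouring genes were convergent in 23.8% of 17472 pairs. Besides Ptpre and Mki67, facing pairs were Fads3 and Fads2, Shcbp1l and Dhx9, Serbp1 and Il12rb2, and Ano7 and Hdlbp.

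KO S2P peaks covered the WT domains almost without remainder. They lay on 99.2% of the domain bases, with a median of 99.6% and a lowest value of 90.4% per domain. All 643 domains were covered for 50% or more, against 73.1% of all WT S2P peaks and 100.0% of the 2181 peaks of 5 to 10 kb, so coverage of 50% or more was shared by the peaks of 5 to 10 kb. At least 95% was covered in 634 domains and the whole domain in 163. The share of bases covered grew with peak width in both directions: it was 51.5% in KO peaks and 62.1% in WT peaks under 500 bp, 96.8% and 98.5% at 5 to 10 kb, and 98.5% and 99.2% in KO and WT domains. For KO domains, WT peaks covered a median of 98.99% and a lowest value of 85.6% per domain. All 784 were covered for 50% or more, beside 64.2% of all KO S2P peaks.

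**Figure D3:**
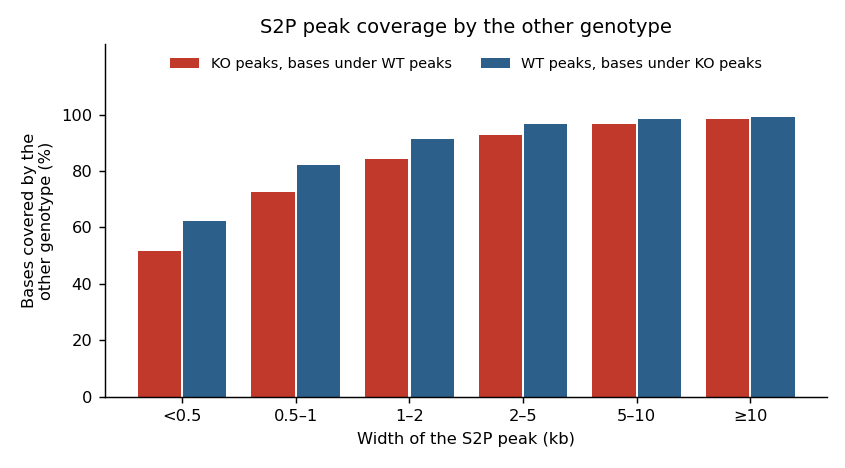
Share of S2P peak bases (percent) that lie under a peak of the other genotype, by peak width in kb, for KO peaks (red) and WT peaks (blue), 1 list each. The share climbs with width, and at 10 kb or more it is 98.5% for KO domains and 99.2% for WT domains.

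What differed was how often a domain was cut into pieces. A single KO peak covered 376 of the WT domains (58.5%, interval 54.6 to 62.3), 2 peaks 176 and at least 3 peaks 91 (14.2%). In reverse, a single WT peak covered 261 of the 784 KO domains (33.3%, interval 30.0 to 36.7) and at least 3 peaks 303 (38.6%). The gaps were short, with a median of 93 bp between WT peaks inside KO domains and 88 bp between KO peaks inside WT domains. At least 1 KO peak of 10 kb or more lay on 546 WT domains (84.9%), and a WT peak of that width on 541 KO domains (69.0%). The widest KO peak was wider than the WT domain in 343 cases and narrower in 300. Each list chose its own widest peaks by the rule, so these shares are a description.

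The 10 domains least covered by KO still had 90.4 to 95.1% of their bases under KO peaks. The domain of Tpm3, a tropomyosin gene, was covered for 90.4% by 7 KO peaks. The Gata2 domain (chromosome 6, 88191476 to 88202828, 11.4 kb) was covered for 92.9% by 4 KO peaks, of which the widest had 4.78 kb. It was one of the few that covered a gene start, and S2P peaks covered 93.6% of the gene in KO and 99.3% in WT. Others were at Aplp2, Mdh2, Snrpa1, Rbm38, Lama5, St3gal6 and Setdb1. Rbm38, an RNA-binding protein gene, was covered for 94.5% by 8 KO peaks, and Setdb1 for 95.1% by 5.

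WT peaks covered 7 KO domains for less than 90%. The lowest values were at Gars, the glycyl-tRNA synthetase gene, with 85.6% under 10 WT peaks, and at Ttc4 with 85.9% under 7. Bscl2, Atl3, Uhmk1, Plekhb1 and Nim1k, whose domain also covers the cholesterol synthesis gene Hmgcs1, had 88.6 to 89.7%. Among the 7, the KO summit had 213 fragments at Nim1k and between 89 and 130 at the other 6.

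Summit heights were close between genotypes. In 610 WT domains the tallest KO summit also lay inside the domain and could be compared after division by each list's lowest background. The log2 ratio of KO to WT had a median of 0.06 (quartiles -0.00 and 0.13), and KO was higher in 446 and lower in 164. Peaks of 5 to 10 kb had a median of 0.09 over 2035 peaks, and the 153 domains with summits under 50% of the 298-fragment ceiling had 0.12. The range was -0.35 to 0.39. The ends of the range, chosen after their values were seen, were Cdk1, the mitotic kinase gene, with 192 fragments in KO and 145 in WT, and the carboxypeptidase gene Agbl5 with 131 in KO and 165 in WT.

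Genes with a domain were covered to the same extent in both genotypes. Their median S2P coverage was 82.0% in KO and 82.3% in WT. Coverage was higher in KO for 375 genes, lower for 391 and equal for 61 of the 827. Among all 3225 genes with at least 50% of their length covered in WT, 47.2% had higher coverage in KO.

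Per listed gene, WT domains were most frequent on genes for splicing and RNA-binding proteins and next on genes for translation and nucleolar proteins. Per covered gene of 2 kb or more that order was different, with 57.5% for splicing, 57.1% for stem and progenitor, 45.0% for chaperone and 41.4% for translation genes. These lists were written with earlier results of these data known, and none was tested. Beside 3.78% of all genes and 20.6% of the covered genes, 23 of 40 genes for splicing and RNA-binding proteins carried a WT domain (57.5%), and 29 a KO domain (72.5%). The widest stretches were at Sfpq (20.1 kb), Hnrnpf (28.1 kb), Rbm25 (18.6 kb), Hnrnpu (20.1 kb) and Rbm39 (19.3 kb), which encode nuclear RNA-binding and splicing proteins. All 40 were covered for 50% or more by S2P peaks in KO and in WT.

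Translation and nucleolar genes carried a domain in 13 of 30 cases in KO and 12 of 30 in WT, with Eif3a (27.7 kb), Nop58 (28.7 kb), Eif4g1 (19.3 kb), Eif4g2 (16.7 kb) and Ncl (17.2 kb). The Eif genes encode translation initiation factors, and Ncl encodes nucleolin. Chaperone genes carried one in 9 of 25 cases in KO and 9 of 25 in WT. They included the mitochondrial chaperones Hspa9 (16.0 kb) and Hspd1 (12.7 kb) and the cytosolic chaperonin subunits Cct2 (16.4 kb), Cct4 (16.8 kb) and Cct8 (14.0 kb).

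Blood regulators and red cell genes also carried domains. Of the genes of 2 kb or more that WT S2P peaks covered for 50% or more, a WT domain was carried by 8 of 14 on the stem and progenitor list (57.1%) and by 10 of 26 on the erythroid list (38.5%), beside 20.6% of all such genes. Erythroid genes carried a domain in 13 of 55 cases in KO and 10 of 55 in WT. The 5 with the most domain bases in the gene had domains at Zfpm1 (29.4 kb), Bcl11a (20.4 kb), Car1 (14.3 kb), Gfi1b (16.0 kb) and Ermap (14.0 kb). Bcl11a, a repressor of globin genes, was covered for 89.0% in KO and 79.3% in WT. A domain of 13.9 kb lay on Gata1, where fragments from the GATA1 fusion transgene cannot be told apart from those of the gene's own exons. Stem and progenitor genes carried a domain in 8 of 34 cases in KO and 8 of 34 in WT, led by Cbfa2t3 (28.8 kb), Kit (21.0 kb), Runx1 (19.0 kb), Myb (16.2 kb) and Adgrg1 (16.2 kb).

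Cell cycle genes carried a domain in 7 of 28 cases in KO and 6 of 28 in WT, with Cdk1, Mki67, Ccnd2, Mcm5 and Mcm3. Genes of chromatin remodellers and polymerase elongation factors did so in 8 of 36 in KO and 9 of 36 in WT, among them Chd4, Cdk12, Supt5 and Brd2. Cytoskeleton and metabolism genes did so in 3 of 26 in KO and 4 of 26 in WT, namely Ywhaz, Gnas, Flna and Actb in WT. Over all protein-coding genes the share was 4.62% in KO and 3.78% in WT. Of covered genes of 2 kb or more, a WT domain was carried by 26.1% of cell cycle and 17.4% of cytoskeleton and metabolism genes. Both were near the 20.6% of all such genes, and the share for remodeller and elongation factor genes was 34.8%. Histone genes are left aside, since only 6 of the 25 listed reach the 1 kb that carrying a domain requires.

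**Figure D4:**
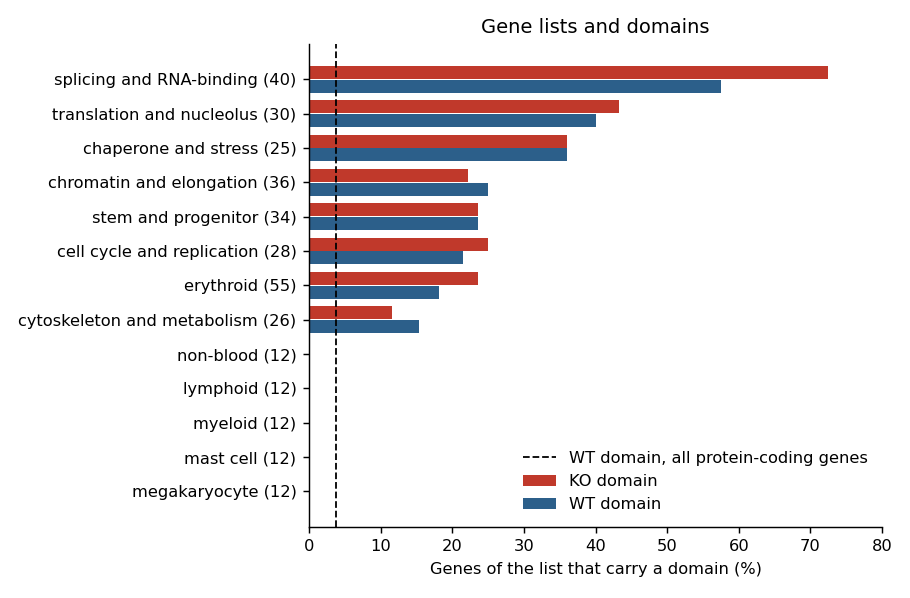
Share of all genes of each list (percent, number of genes in brackets) that carry a domain in KO (red) or WT (blue), with 1 peak list per genotype, and the share of all protein-coding genes that carry a WT domain (dashed, 3.78%). The splicing and RNA-binding list stands highest with 72.5% in KO and 57.5% in WT. The lists of megakaryocyte, mast cell, myeloid, lymphoid and non-blood genes stand at 0, with 12 genes each and few of them covered by S2P peaks.

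Markers fixed for the labelled cell type were in place for erythroid cells and near absent for others. S2P peaks covered at least 50% of 7 of 12 erythroid markers in KO and the same number in WT, with Slc4a1 at 0 in both. The counts were 1 of 8 in KO and 1 of 8 in WT for megakaryocyte markers and 0 in KO and 1 in WT for mast cell markers. Myeloid, lymphoid and non-blood markers had 0 in both, and all 8 lymphoid markers had no S2P peak at all. No gene of the 12-gene megakaryocyte, mast cell, myeloid, lymphoid or non-blood lists carried a domain in either genotype. Few genes of these lists could do so. WT S2P peaks covered 50% or more of 2, 1, 0, 0 and 1 of their genes of 2 kb or more, in that order. The share over all protein-coding genes was 3.78%, so none in 12 genes says little.

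Small RNA genes were dense in the domains. There were 60 snoRNA genes in 32 domains, or 6.43 per Mb (interval 4.91 to 8.28), against 1.91 per Mb in all narrower WT peaks and 6.75 per Mb in peaks of 5 to 10 kb. The 49 miRNA genes lay in 45 domains, or 5.25 per Mb (interval 3.89 to 6.94), against 2.01 in narrower peaks and 3.65 in peaks of 5 to 10 kb. RefSeq (GRCm38.p6) gave mature sequences for 44 of these miRNA genes, with 72 distinct seeds among 73 mature miRNAs. The mature sequences of 4, chosen from domains of genes named here or for the best known miRNA, show that they share no seed (bases 2 to 8, in capitals).
miR-7a-5p, in the Hnrnpk domain, chr13:58392841-58392863, minus strand: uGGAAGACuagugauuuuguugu
miR-21a-5p, in the Vmp1 domain, chr11:86584120-86584141, minus strand: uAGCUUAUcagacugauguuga
miR-150-3p, in the Rpl13a domain, chr7:45121798-45121819, plus strand: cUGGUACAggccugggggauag
miR-5114, in the Scd2 domain, chr19:44303171-44303192, plus strand: aCUGGAGAcggaagcugcaaga
The Vmp1 domain of Mir21a was 10.5 kb wide and 99.004% covered by KO peaks, and the Hnrnpk domain of Mir7-1 was 19.1 kb wide and 99.6% covered. Width of an S2P peak says nothing of how much mature miRNA was made.

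RUNX1 and GATA2 summits lay in many of the domains. A RUNX1 summit lay in 308 domains in KO (47.9%, interval 44.0 to 51.8) and in 252 in WT (39.2%, interval 35.4 to 43.1), beside 4.26% of all WT S2P peaks for the KO list and 3.32% for the WT list. A GATA2 summit lay in 454 in KO (70.6%) and 409 in WT (63.6%), beside 6.83% and 5.58%. These shares follow width, so the densities per length are more comparable. RUNX1 summits numbered 7.68 per 100 kb of domain in KO and 4.92 in WT, and GATA2 summits 11.6 in KO and 9.26 in WT. All narrower S2P peaks had 7.33 RUNX1 summits per 100 kb in KO and 5.45 in WT, and 11.4 GATA2 summits in KO and 9.12 in WT. With only factor peaks of −log10 q of 5 or more, the KO RUNX1 density in domains turned to the lower side, with 5.98 in domains against 6.31 in narrower peaks.

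**Figure D5:**
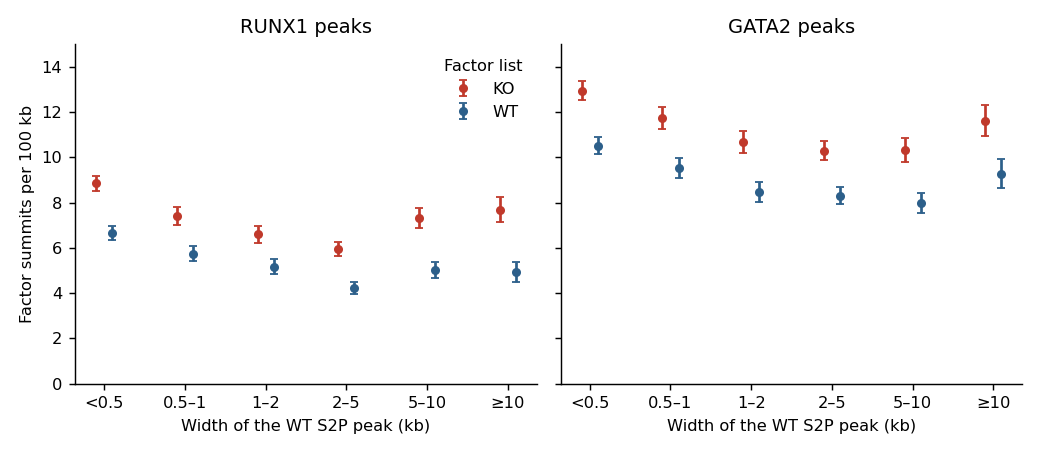
RUNX1 (left) and GATA2 (right) summits per 100 kb of WT S2P peaks, by peak width in kb, for the KO factor list (red) and the WT factor list (blue), 1 library each, with exact 95% Poisson intervals for counting error. The KO points lie above the WT points in every width class, and in domains they are 7.68 and 4.92 for RUNX1 and 11.6 and 9.26 for GATA2.

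The KO list held more RUNX1 summits than the WT list, and by a wider margin in wide S2P peaks, of which domains are the widest. There were 716 RUNX1 summits in domains in KO and 459 in WT, a ratio of 1.56 (interval 1.39 to 1.76). The interval takes the KO and WT summits as independent counts, though 388 of the 716 KO peaks overlapped a WT peak. It does not measure a spread between libraries. The ratio was 1.46 in peaks of 5 to 10 kb, which lies inside that interval. It was 1.34 in all narrower S2P peaks, 1.18 outside S2P peaks and 1.22 over the whole lists. For GATA2 the counts were 1083 in KO and 864 in WT, a ratio of 1.25 in domains. The GATA2 ratio was 1.29 in peaks of 5 to 10 kb, 1.25 in all narrower peaks and 1.18 over the whole lists. The RUNX1 ratios were smaller under a stricter threshold and with lists of equal length. With only peaks of −log10 q of 5 or more it was 1.398 in domains and 1.301 in narrower peaks, and with the KO list cut to the length of the WT list it was 1.10 and 1.07. These alternatives were chosen after seeing the data, and without chromosome 5 the ratio in domains was 1.55.

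Per domain, RUNX1 summits were more numerous in KO in 192 domains, fewer in 35 and equal in 416. RUNX1 summits in KO alone were found in 79 domains, in WT alone in 23 and in both in 229. The whole KO RUNX1 list is longer, with 35281 peaks against 28952 in WT. Over all 163620 WT S2P peaks, 6973 held a RUNX1 summit in KO and 5425 in WT, so an excess in KO was not particular to domains. Of the KO RUNX1 peaks in domains, 54.2% overlapped a WT RUNX1 peak, against 65.4% in narrower S2P peaks and 69.6% in the whole list. In the other direction 86.9% of the WT RUNX1 peaks in domains overlapped a KO peak, against 90.3% in narrower S2P peaks and 86.6% in the whole list. For GATA2, 69.3% of the KO peaks in domains overlapped a WT peak, against 70.7% in narrower S2P peaks and 68.8% in the whole KO list. Of the WT GATA2 peaks in domains 86.9% overlapped a KO peak, against 88.1% in narrower S2P peaks and 81.5% in the whole WT list. The 328 unshared KO RUNX1 peaks in domains were low, with a median of 21 fragments, against 53 for shared ones. Of these, 11.9% lay within 1 kb of a gene start, against 27.6% of the unshared KO peaks in narrower S2P peaks.

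Within 1 kb, starts of genes with a domain held RUNX1 about as often as those of other covered genes, and GATA2 somewhat more often. RUNX1 lay within 1 kb of a start in 606 of 669 genes in KO (90.6%) and 565 in WT (84.5%), against 89.7% in KO and 83.9% in WT of other covered genes, and 42.4% and 38.6% of all genes. GATA2 did so in 38.7% in KO and 32.7% in WT, against 33.1% in KO and 27.3% in WT of other covered genes, and 17.5% and 15.1% of all genes. Away from starts, RUNX1 density in domains was 6.30 per 100 kb in KO and 3.84 in WT, against 5.20 in KO and 3.86 in WT in narrower peaks.

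The domains richest in WT factor summits were of mixed function. The Zfpm1 domain held 11 RUNX1 summits in KO and 8 in WT, and 15 GATA2 summits in KO and 13 in WT, the most of any domain for both factors. Tgfb1 held 9 RUNX1 summits in KO and 7 in WT. Hnrnpk had 6 in KO and 7 in WT, Fads2 5 and 6, Mbnl1 7 and 6, and Ripor1 6 and 6. For GATA2, Mbnl1 had 11 in KO and 11 in WT, Prkar2b 7 and 9, Dhx9 5 and 7, Ripor1 6 and 7, and Scd2 5 and 7. The Gata2 domain had 7 RUNX1 summits in KO and 3 in WT, with 5 GATA2 summits in each.

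Chosen after their values were seen, the largest differences in RUNX1 number were at Hsp90aa1, a chaperone gene, with 5 summits in KO and 0 in WT, and at Jade1 with 6 in KO and 2 in WT. Tardbp and Ncl had 5 in KO and 1 in WT each, Rpl13a had 6 and 2, and Son, a splicing speckle protein gene, had 4 and 0. On the other side Grb2 had 0 in KO and 3 in WT, and Arid1a had 0 in KO and 2 in WT.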

How the data were processed

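The deposited files are MACS2-style peak lists without headers. The authors' score is 10 times the −log10 q of the summit, their fold enrichment is a ratio of summit pileup to local background, and the deposited −log10 p and −log10 q belong to the summit. Bowtie2 2.2.1, MACS2 2.1.0 and GRCm38 (mm10) are named per the submitters' processing notes, with no settings. The S2P list of a genotype is named in the labels of both its replicates, and the labels name input libraries by genotype and target, but how they entered each list is not given in the sources used here.

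Widths, overlaps and summit positions were computed with Python 3.11.15, numpy 2.4.6, pandas 2.3.3 and scipy 1.17.1. Whole summit fragments were recovered from fold and p within 0.005 on the −log10 p scale for 100.0% of WT and more than 99.9% of KO S2P peaks, after a scale of 0.96 for KO. The overlap and fragment steps were tested on simulated data with known answers. Shares have exact Clopper-Pearson intervals and densities exact Poisson intervals at 95%, for counting error only. Ratios of KO to WT summits have intervals turned from the binomial interval of the KO share of the summits. These take the lists as independent, although the lists share many sites. Total depth per library is unknown from peak lists.

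A domain has 10000 bp or more, a gene carries it from 1000 bp of overlap, and a factor peak lies where its summit lies. Of 21887 protein-coding genes, 17492 had a start and strand in the RefSeq promoter table. No other per-sample columns were left unused. The domains named are the 15 widest, the 10 least covered by KO, KO domains covered for under 90% by WT, the 6 richest in RUNX1 and in GATA2, those nearest 10000 bp and up to 5 per gene list, each called by its most overlapped named gene. Names chosen otherwise are stated as such. A few genes that the rule names are not reported here. The domains and gene lists were chosen with earlier results of these data known.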

Additional observations from a re-analysis of the deposited data

How the results depend on the processing

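The ratios of KO to WT summits in domains and past the ends of genes with a domain stayed above 1 under the alternatives run. With the KO list cut to the WT length, the ratio past the ends of other genes was below 1, at 0.995 for RUNX1 and 0.995 for GATA2, and before those ends 0.957 for RUNX1. With factor peaks of −log10 q of 5 or more, the share of domains with a summit was 42.6% for RUNX1 in KO, and for GATA2 66.3% in KO and 57.9% in WT. Under the same threshold, summits per 100 kb in domains were 5.98 in KO and 4.28 in WT for RUNX1 and 10.1 in KO and 7.87 in WT for GATA2. In narrower S2P peaks they were 6.31 in KO and 4.85 in WT for RUNX1 and 9.77 in KO and 7.88 in WT for GATA2. A width of 8000 bp gave 1358 domains in KO and 1126 in WT, and 15000 bp gave 263 and 189. Joining peaks over 1000 bp gave 4261 and 3963, and coverage of 99.9% of KO domain bases by WT and 99.9% of WT domain bases by KO. Asking for 50% of the domain inside 1 gene left 81.3% on a coding gene. With the KO list cut to the WT length, the KO to WT ratio of summits in domains was 1.10 for RUNX1 and 1.09 for GATA2, and 1.17 for RUNX1 past gene ends. The cutting of lists was chosen after seeing the data, and the smaller counts follow from fewer peaks. No paired analysis was possible because each genotype has 1 list per target, and for the same reason no replicate could be left out. Depth cannot be read from peak lists, so a summit missing from a list may lie under its threshold.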

Other observations

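RUNX1 summits just past gene ends, where S2P is highest, were more numerous in the KO list. The window of 3 kb past the end was chosen after the profile along genes had been seen, and summits within 1 kb of any gene start were left out. Past the ends of 669 genes with a domain there were 188 RUNX1 summits in KO (9.92 per 100 kb, interval 8.55 to 11.4) and 89 in WT (4.70 per 100 kb, interval 3.77 to 5.78), a ratio of 2.11 (interval 1.63 to 2.75). The interval of the ratio takes the KO and WT summits as independent counts and does not measure a spread between libraries. In the 3 kb before the end there were 96 in KO and 57 in WT, a ratio of 1.68. Past the ends of 2124 covered genes without a domain the ratio was 1.69, and past the ends of 12540 other genes it was 1.26. GATA2 summits past the ends of genes with a domain numbered 199 in KO and 154 in WT, a ratio of 1.29.

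The KO summits past the ends of genes with a domain had a median of 23 fragments, and the WT summits 31. At −log10 q of 5 or more the counts were 127 in KO and 73 in WT, a ratio of 1.74, and with the KO list cut to the WT length 104 in KO, a ratio of 1.17. With lists of equal length the ratio was also 1.17 past the ends of covered genes without a domain, and 0.995 past those of other genes. Of the 669 genes, 82 had a RUNX1 summit there in KO alone, 10 in WT alone and 69 in both. These gene counts were not made for genes without a domain, and the whole KO RUNX1 list is longer, with 35281 peaks against 28952. They are therefore a description and not a trait of genes with a domain. The largest differences were at Tra2b, a splicing regulator gene, with 4 in KO and 0 in WT, at Ncl with 4 in KO and 1 in WT, and at Mat2a and Sf3b3 with 3 in KO and 0 in WT each. The part of list length and peak strength in these counts was not tested further.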
